A study of Macaca fascicularis with 2 samples.

Results

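Retinoic acid is made from vitamin A, and 9 genes that supply it, make it, bind it, break it down and receive it were followed through the cells of a monkey testis held in the abdomen and of a testis in the scrotum. The 9 were found by symbol among the 28845 features of the deposited matrices. They are ALDH1A1 and ALDH1A2, which oxidise retinaldehyde to retinoic acid, CYP26B1, which oxidises retinoic acid to inactive products, RBP4, which carries retinol in plasma, STRA6, the membrane receptor that takes retinol up from RBP4, CRABP1, which binds retinoic acid in the cytoplasm, and the nuclear receptors RARA, RARB and RARG. For 8 of them the files give the symbol itself. CYP26B1 is listed as LOC102131789 and was matched by that gene number to a RefSeq gene table of the species.

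In the mouse testis, retinoic acid starts the change of undifferentiated into differentiating spermatogonia and the entry into meiosis, and CYP26 enzymes keep it from germ cells at other times. Retinoic acid acts through RAR and RXR receptors bound to DNA as pairs, and cells keep its level through the balance of the ALDH1A and CYP26 enzymes. Which cell makes and which cell breaks it down in a primate testis decides which neighbours are exposed to it, and the levels below describe the RNA side of that question.

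The tissue was testis of the cynomolgus monkey, Macaca fascicularis, in a study of artificial cryptorchidism on one side. One library came from the testis in the abdomen (UAT) and one from the testis of the other side, left in the scrotum (CST), so each position had 1 library, no spread between animals can be given and no test between positions was made. The number of animals, their age and the time in the abdomen were not given in the sources used here. Cells were dissociated with enzymes and their RNA was counted at its 3′ ends with the 10x Genomics droplet method, version 3, in unique molecular identifiers (UMIs).

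The UAT library held 12564 barcodes and 111047299 UMIs and the CST library 15952 barcodes and 197225937 UMIs. After the removal of barcodes with under 500 genes and of likely doublets, 11131 UAT cells and 13201 CST cells were used. The libraries had 50 barcode sequences in common, 35 of them among the cells used. UAT held 299 germ cells and 10615 somatic cells, and CST held 9672 germ cells and 2811 somatic cells. Cells were clustered without the retinoid genes, and 30 of 33 clusters were named from marker lists. The 3 unnamed clusters held 217 UAT cells and 718 CST cells.

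Of undifferentiated spermatogonia-like cells, UAT had 284 and CST 583, and of differentiating ones 10 and 325. CST held 187 early and 2767 late spermatocyte-like cells and 1660 round and 4150 elongating spermatid-like cells, where UAT held 2, 2, 0 and 1. UAT had 803 cells like Sertoli cells, which nurse the germ cells, and 223 like the testosterone-making Leydig cells, where CST had 4 and 3. Clustered without the removal of doublets, CST had 78 Sertoli-like and 24 Leydig-like cells, and their values are given beside the results they touch. The 7 classes with at least 50 cells in both libraries were undifferentiated spermatogonia, peritubular myoid, stromal, pericyte or vascular smooth muscle, endothelial, macrophage, and T or NK cells, each named by its markers and "-like" throughout. In the cluster of undifferentiated spermatogonia the marker lists of undifferentiated and differentiating spermatogonia scored close to each other, 2.52 against 2.39 as mean log2 excess over other clusters.

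Levels are given in CPM, the UMIs of a gene per 1000000 UMIs of the class, summed over its cells, with exact 95% Poisson intervals that cover counting error only. A position was called higher or lower by size alone, at 1.5-fold or more. RNA set free from broken cells adds to every droplet. Its share was estimated at 6.86% of the UMIs in UAT spermatogonia and 3.91% in CST spermatogonia, at 3.60% and 5.14% in stromal cells, and at 15.6% in CST T or NK cells. In spermatids of CST and in Leydig-like and mast-like cells of UAT the share was not measured. A median over other classes stood in for it, 4.38% in CST and 3.82% in UAT.

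ALDH1A1, the first of the enzymes that make retinoic acid, was highest in Sertoli-like cells of UAT. It stood at 940 CPM there (922 to 959, n = 803 cells), and 87.8% of these cells held a UMI of it, at a median depth of 4120 UMIs. In B or plasma-like cells of the same library, at a median depth of 23298 UMIs, 18.4% held one. With every cell thinned to 1000 UMIs the shares were 61.1% and 1.94%. Next came the 57 mast-like cells of UAT at 707 CPM (627 to 794), with INSL3, a Leydig cell hormone, at 3742 CPM beside it in those cells. Leydig-like cells followed at 283 CPM (267 to 300) and stromal-like cells at 272 CPM (267 to 277), and the interval of the ratio of these neighbours held 1. Myoid-like cells stood at 243 CPM (234 to 252) and macrophage-like cells at 164 CPM (153 to 176), and every remaining named UAT class of at least 50 cells was below 50 CPM.

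In CST the order of ALDH1A1 opened with stromal-like cells at 299 CPM (286 to 311), followed by myoid-like cells at 180 CPM (164 to 196) and macrophage-like cells at 130 CPM (97.6 to 170). Stromal and myoid cells together held 93.9% of the 2859 ALDH1A1 UMIs of CST. In UAT they held 49.7% of 26311, and Sertoli-like cells a further 39.0%. The 4 Sertoli-like cells of CST gave 3 UMIs, too few for a level. Without the removal of doublets the 78 Sertoli-like CST cells gave 836 CPM (758 to 919) with AMH, the Sertoli cell hormone, at 567 CPM, and with 11462 CPM of the sperm chromatin gene PRM1, against 2155 CPM in CST stromal-like cells. The 24 Leydig-like CST cells of that set had ALDH1A1 at 308 CPM (260 to 361), INSL3 at 88657 CPM and PRM1 at 6971 CPM. What part spermatid RNA in those droplets had in the levels was not tested. From late spermatocytes to elongating spermatids of CST, ALDH1A1 lay between 0.259 and 0.454 CPM, below the 0.312 to 0.771 CPM expected there from free RNA. For spermatids that expectation used the share taken from other classes.

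ALDH1A2 shared the Sertoli-like and Leydig-like cells of UAT with ALDH1A1, but was low in the stromal-like and myoid-like cells. In UAT it was highest in Sertoli-like cells at 123 CPM (116 to 129) with a UMI in 52.9% of cells, and then in Leydig-like cells at 69.6 CPM (61.6 to 78.4), and these classes held 77.8% of the 2074 UMIs. Stromal-like and myoid-like cells, which carried much ALDH1A1, had 2.05 and 1.52 CPM of ALDH1A2 in UAT. In CST they had 0.272 CPM in stromal-like cells and 0 of 2717339 UMIs in myoid-like cells, with an interval up to 1.36 CPM. The doublet-free set had no Sertoli or Leydig level in CST. Without doublet removal the 78 Sertoli-like cells gave 117 CPM (88.7 to 150) and the 24 Leydig-like cells 92.3 CPM (67.3 to 123).

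In the germ line of CST, ALDH1A2 differed between stages. Undifferentiated spermatogonia stood at 16.5 CPM (12.8 to 21.0, 66 UMIs), differentiating spermatogonia at 0.220 CPM (0.00556 to 1.22, 1 UMI in 325 cells), and early spermatocytes at 36.8 CPM (28.4 to 46.9, 65 UMIs). Late spermatocytes were at 8.54 CPM (7.72 to 9.42), round spermatids at 1.38 CPM and elongating spermatids at 0.254 CPM. The level at the differentiating stage lay below the intervals of both neighbours. The stages depend on the clustering: at a resolution of 0.5 ALDH1A2 of CST was highest in late spermatocytes. Among the 4 late spermatocyte clusters the level ran from 2.90 to 15.7 CPM. Germ cells held 99.0% of the 598 ALDH1A2 UMIs of CST and spermatocytes alone 76.9%, where the germ cells of UAT held 5.26%, beside 9672 germ cells in CST and 299 in UAT. These shares move with the doublet filter: without it the Sertoli-like and Leydig-like cells of CST gave 59 and 45 ALDH1A2 UMIs, 13.0% of 801, and germ cells held 85.6%.

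**Figure D1:**
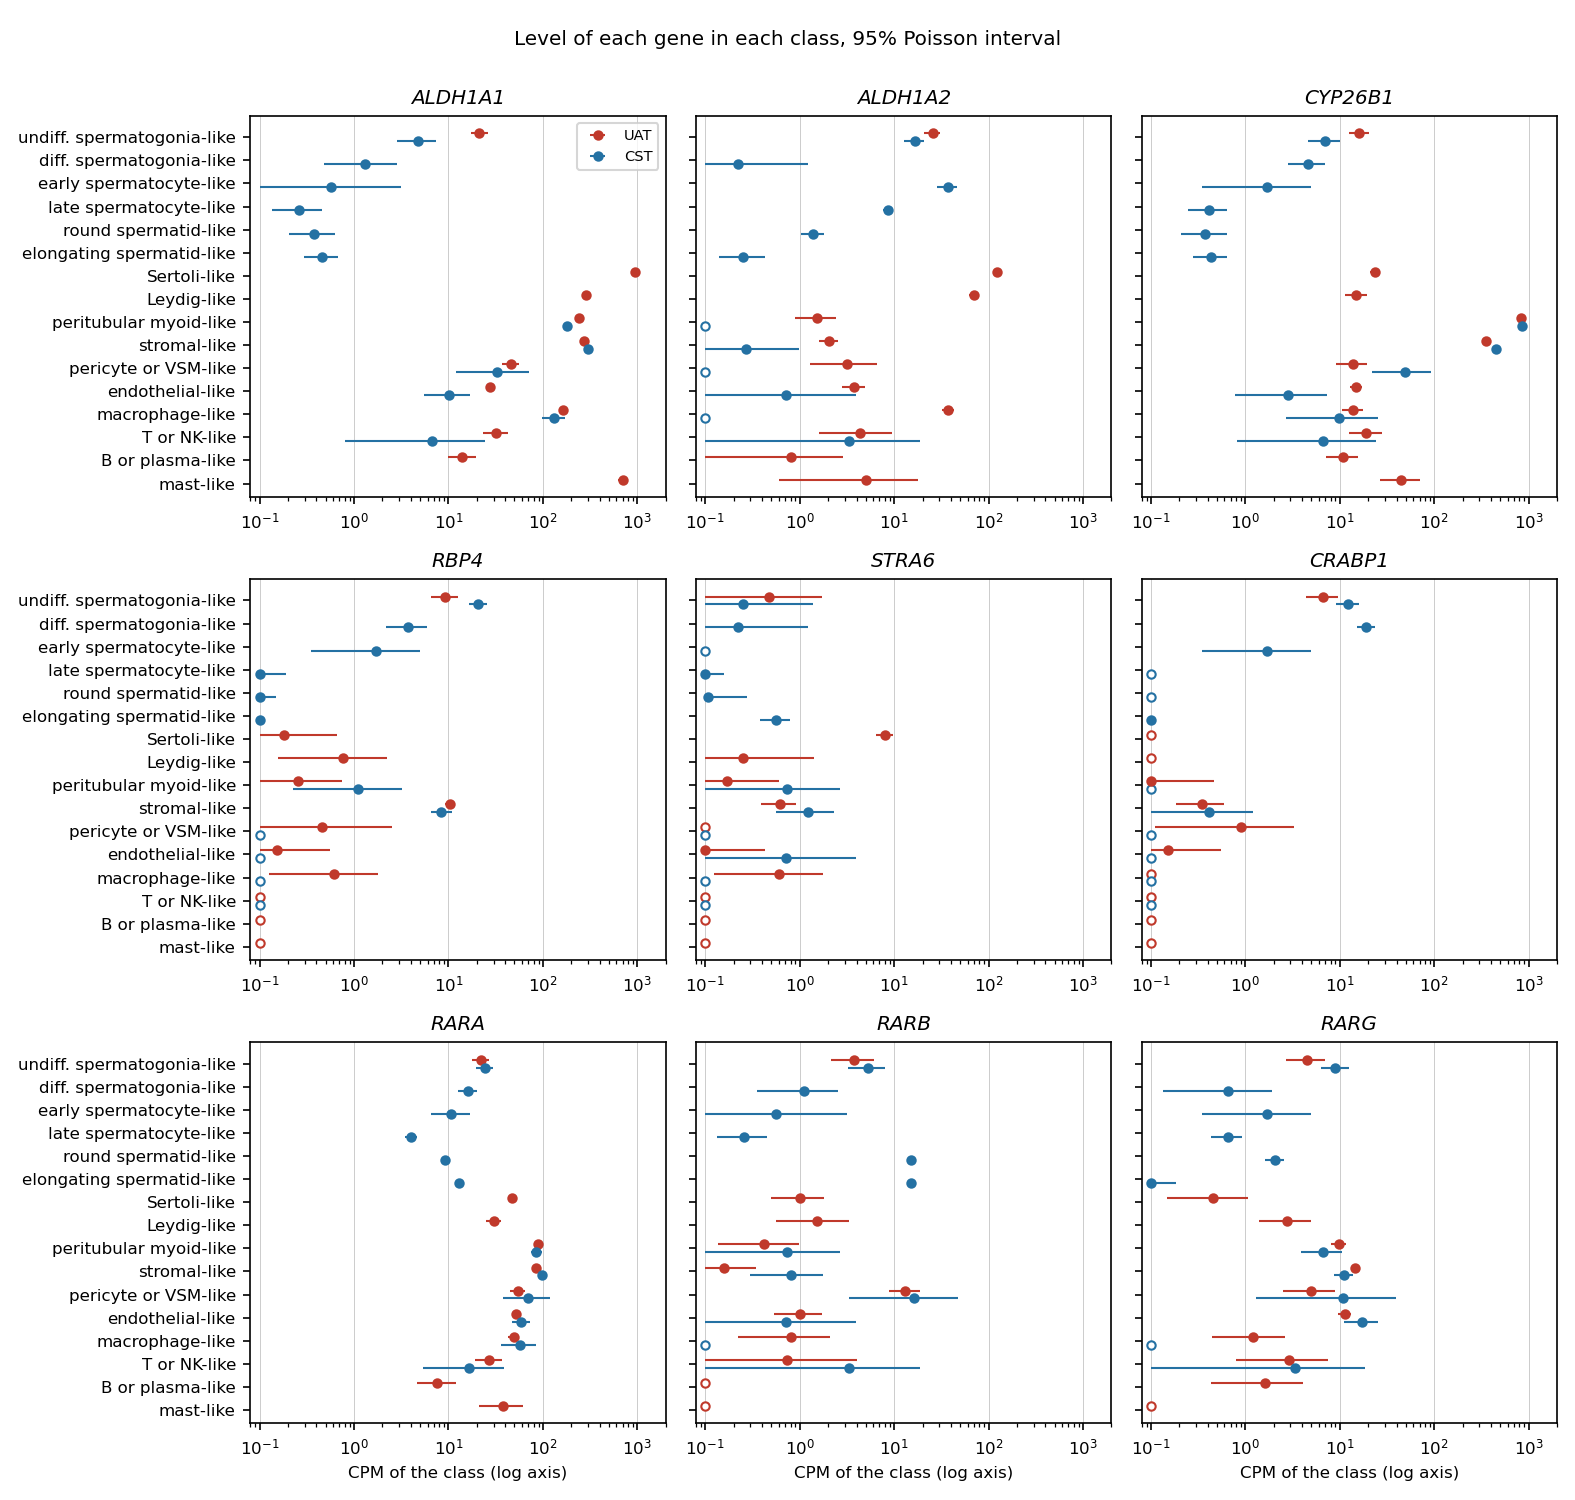
Level of each gene (x axis, CPM of the class, log axis) in each class with at least 50 cells (y axis), UAT in red and CST in blue, bars showing the 95% Poisson interval, open points at the left edge 0 UMIs and filled points at the left edge levels at or below 0.1 CPM. ALDH1A1 and ALDH1A2 peak in Sertoli-like cells of UAT at 940 and 123 CPM, and CYP26B1 in myoid-like cells of both libraries at 840 and 856 CPM.

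RNA of the breakdown enzyme lay mainly in the wall of the tubule and in the stroma. CYP26B1 was at 840 CPM (824 to 857) in UAT myoid-like cells and 856 CPM (821 to 891) in CST ones, the contractile cells that wrap the tubule, and 85.9% and 81.1% of them held a UMI. In T or NK-like cells the shares were 4.65% and 1.45%, at median depths of 3086 and 1838 UMIs against 7309 and 5852 in myoid-like cells. Stromal-like cells had 356 CPM (350 to 362) in UAT and 454 CPM (439 to 469) in CST. Myoid and stromal cells together held 96.7% of the 24086 CYP26B1 UMIs of UAT and 97.7% of the 5792 of CST. Outside them the 57 UAT mast-like cells had 45.0 CPM, with 94.4% of the UMIs in 5 cells. UAT Sertoli-like cells stood at 23.7 CPM (20.9 to 26.8) and UAT Leydig-like cells at 14.9 CPM. Free RNA was expected to give 106 of the 259 Sertoli and 38.2 of the 59 Leydig UMIs. Germ cells of CST from late spermatocytes on were at 0.378 to 0.436 CPM, below the 0.632 to 1.56 CPM expected there from free RNA. For Leydig-like cells and spermatids the expectation used the share taken from other classes.

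Within the stromal class CYP26B1 differed by cluster more than by position. In cluster 1 it was at 99.1 CPM in UAT and 99.6 CPM in CST, in cluster 2 at 388 and 367 CPM, and in cluster 10 at 535 and 519 CPM. Cluster 5 was the exception, with 445 CPM (433 to 457) in UAT and 206 CPM (169 to 248) in CST, the latter from 91 cells. Most stromal cells of CST, 1304 of 1686, were in cluster 10, which had 41 cells in UAT, and with the 3 clusters of at least 50 cells in each library alone the log2 ratio of UAT over CST was 0.64, past 1.5-fold and opposite in sign to the -0.35 of the whole class. ALDH1A1 spread otherwise, between 180 and 371 CPM over these clusters. Myoid cells also fell into different clusters, 1611 UAT and 28 CST cells in cluster 7 and 428 CST cells in cluster 21, and CYP26B1 in the CST cells of these was at 662 CPM and 866 CPM.

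**Figure D2:**
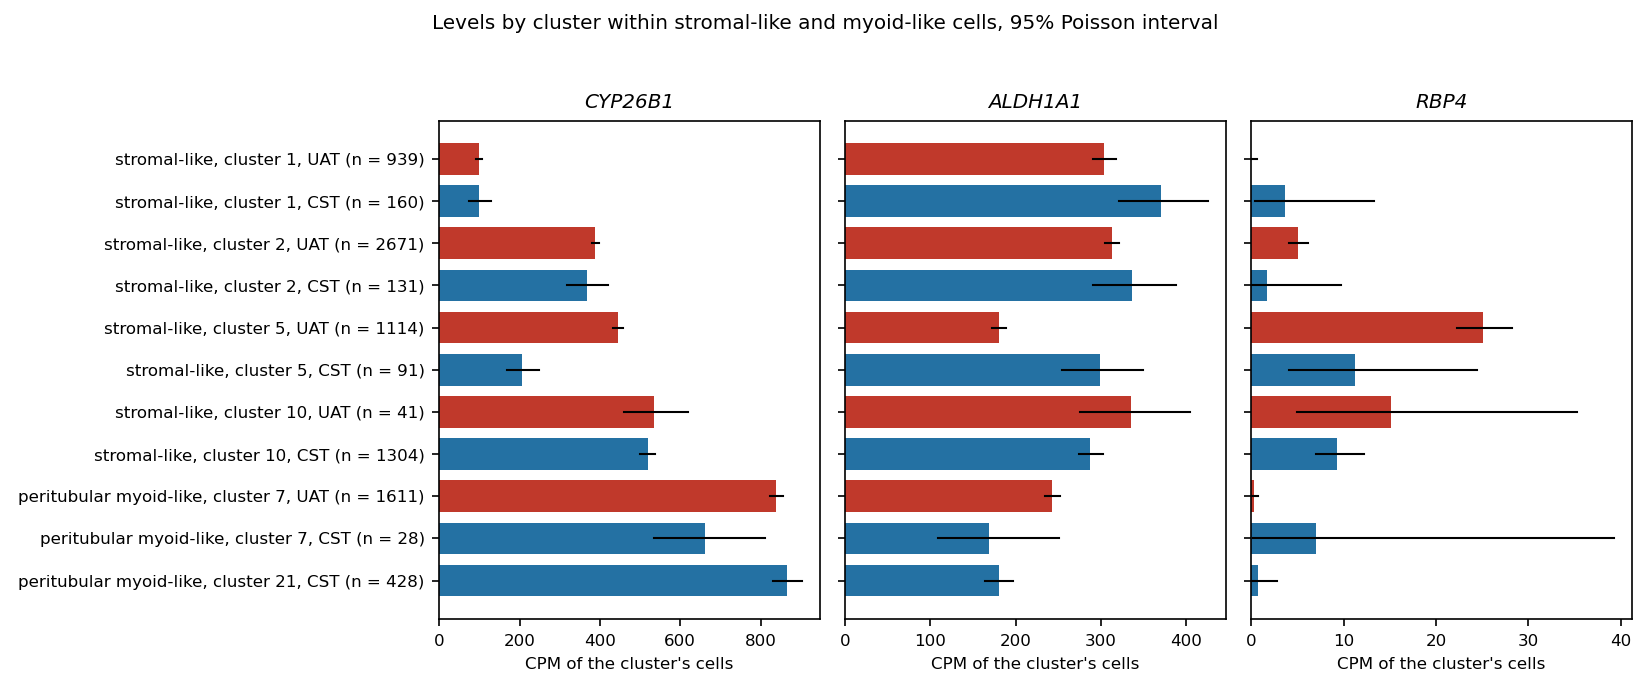
CYP26B1, ALDH1A1 and RBP4 (x axes, CPM of the cluster's cells, from 0) by cluster and library within the stromal-like and myoid-like classes (y axis, with the number of cells), UAT bars in red, CST bars in blue and black lines for the 95% Poisson interval. CYP26B1 runs from 99.1 CPM in stromal cluster 1 of UAT to 866 CPM in myoid cluster 21 of CST, and the libraries lie close to each other in stromal clusters 1, 2 and 10.

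Whether the cells that carried ALDH1A1 were also those that carried CYP26B1 was looked at with 1000 UMIs per cell. Of the 340 myoid-like UAT cells with ALDH1A1, 48.8% also held CYP26B1, against 49.2% of the 1267 cells without it. In CST these shares were 46.4% of 84 cells and 49.5% of 372. In stromal-like cells they were 22.5% and 24.5% in UAT and 25.1% and 29.3% in CST. The same cells thus carried RNA of a making and a breaking enzyme about as often as their shares alone would give. Of the 427 Sertoli-like UAT cells with ALDH1A1, 15.7% held ALDH1A2, against 11.4% of the 272 without.

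RBP4, STRA6 and CRABP1, the genes of retinol supply, retinol uptake and retinoic acid binding, were all low. RBP4 was highest in undifferentiated spermatogonia of CST at 20.7 CPM (16.5 to 25.7, 83 UMIs) and stood at 9.23 CPM (6.56 to 12.6, 39 UMIs) in those of UAT. It was at 3.73 CPM in differentiating spermatogonia and at or below 1.70 CPM in later germ cells of CST. Stromal-like cells, next to which UAT spermatogonia did not differ beyond counting error, had 10.3 CPM (9.28 to 11.4) in UAT and 8.43 CPM (6.47 to 10.8) in CST. Within the stroma of UAT, cluster 5 stood at 25.1 CPM and cluster 1 had 0 UMIs. Spermatogonia and stroma held 96.8% of the 439 UMIs of UAT and 93.6% of the 173 of CST.

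STRA6 was at 7.97 CPM (6.38 to 9.83, 87 UMIs) in UAT Sertoli-like cells, which held 73.1% of its 119 UMIs in that library. Only 6.85% of these cells held a UMI, against 0.462% of UAT stromal-like cells at 0.613 CPM. In the 78 Sertoli-like CST cells without doublet removal 2 UMIs were seen, at 3.95 CPM (0.479 to 14.3). Elongating spermatids of CST stood at 0.563 CPM. CRABP1 was highest in spermatogonia in CST. It was at 12.2 CPM (9.06 to 16.2, 49 UMIs) in undifferentiated and at 19.1 CPM (15.3 to 23.6, 87 UMIs) in differentiating spermatogonia of CST. It was at 1.70 CPM in early spermatocytes and at 0 of 46261077 UMIs in late spermatocytes, with an interval up to 0.0797 CPM. Spermatogonia held 95.1% of its 143 UMIs in CST. In UAT undifferentiated spermatogonia it was at 6.63 CPM (4.40 to 9.58, 28 UMIs), and Sertoli-like cells had none in 10916077 UMIs. Of its 48 UMIs in UAT, spermatogonia held 62.5% and stromal-like cells 27.1%.

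RARA was the broad receptor. In UAT it was at 89.8 CPM (84.4 to 95.3) in myoid-like, 85.3 CPM (82.4 to 88.3) in stromal-like, 54.2 CPM in pericyte or smooth muscle-like, 51.7 CPM in endothelial-like, 49.0 CPM in macrophage-like and 46.8 CPM (42.8 to 51.1) in Sertoli-like cells. In CST stromal-like cells had 97.4 CPM (90.4 to 105) and myoid-like cells 85.0 CPM (74.4 to 96.7). The interval of the ratio of myoid to stromal held 1 in both libraries, as did those between the neighbours from pericytes to Sertoli-like cells in UAT, so only the step between stroma and these was larger than counting error there. Summed by class, germ cells of CST had less. Along the germ line of CST it went from 24.2 CPM (19.7 to 29.6) in undifferentiated spermatogonia through 16.0 and 10.8 CPM to 4.00 CPM (3.44 to 4.62) in late spermatocytes, and then to 9.23 CPM (8.28 to 10.3) in round and 13.0 CPM (12.0 to 13.9) in elongating spermatids. The elongating class was not uniform. Its 6 clusters ran from 2.06 CPM in cluster 30 (566 cells, 2 UMIs) to 221 CPM (143 to 327) in cluster 28 (101 cells, 25 UMIs), the latter above the stromal level. Cluster 29, with 733 cells, stood at 22.7 CPM and held 487 of the 714 UMIs.

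RARB was mainly a spermatid transcript in CST. It was at 0.259 CPM (0.134 to 0.453) in late spermatocytes and at 15.1 CPM (13.9 to 16.4, 561 UMIs) in round and 15.0 CPM (14.0 to 16.1, 829 UMIs) in elongating spermatids, and spermatids held 95.6% of the 1454 UMIs. In round spermatids 24.5% of cells held a UMI at a median depth of 20914, against 0.434% of late spermatocytes at 9027. UAT, with 1 spermatid-like cell, had 115 RARB UMIs in all. Close to spermatids, with an interval of the ratio that held 1, were pericytes or smooth muscle, at 13.2 CPM (8.84 to 19.0, 29 UMIs) in UAT and 16.2 CPM (3.34 to 47.4, 3 UMIs) in CST, and they were the highest named class of UAT. An unnamed UAT cluster of 149 cells with both myoid and pericyte markers had 20.8 CPM from 17 UMIs.

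RARG was highest in stroma and vessels. It was at 14.5 CPM (13.3 to 15.8) and 11 CPM (8.75 to 13.7) in stromal-like cells of UAT and CST. Endothelial-like cells had 11.3 CPM (9.53 to 13.3) in UAT and 17.2 CPM (11 to 25.6) in CST. Myoid-like cells were at 9.81 CPM in UAT and 6.62 CPM in CST. In CST pericytes or smooth muscle (2 UMIs) and undifferentiated spermatogonia ranked between stromal-like and myoid-like cells. From endothelial-like to myoid-like cells of CST no step between adjacent ranks was larger than counting error. The intervals of endothelial-like and myoid-like cells themselves did not overlap there. Undifferentiated spermatogonia had 4.50 CPM in UAT and 9.0 CPM (6.30 to 12.5) in CST, differentiating ones of CST 0.659 CPM and elongating spermatids 0.0726 CPM. Sertoli-like cells stood at 0.458 CPM. Germ cells held 54.1% of the 281 RARG UMIs of CST and 2.38% of the 884 of UAT, beside 9672 germ cells in CST and 299 in UAT.

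**Figure D3:**
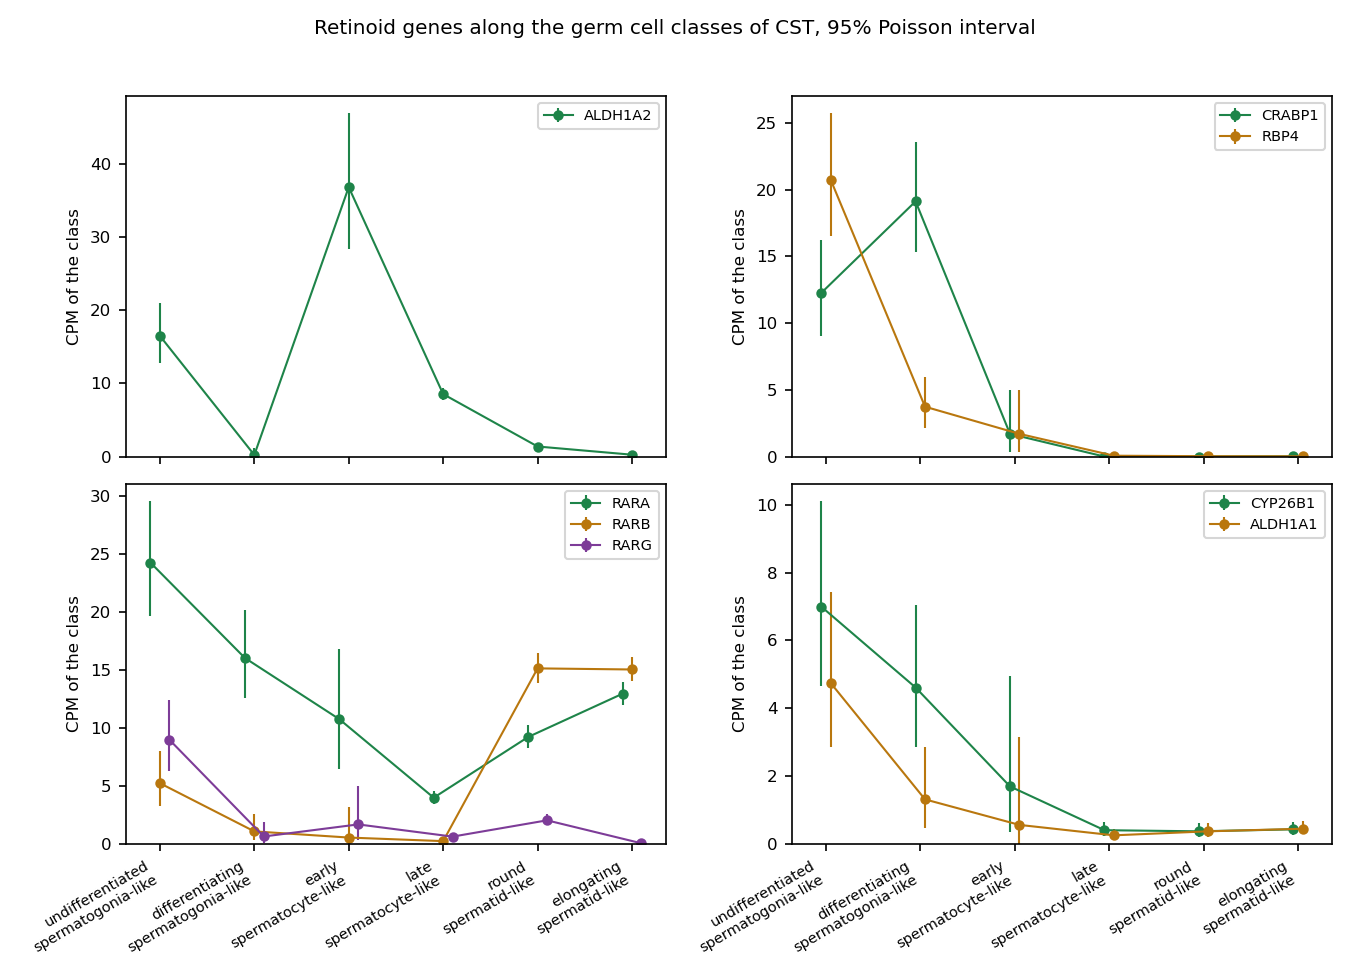
Level in CST (y axes, CPM of the class, from 0) of 8 of the genes in the germ cell classes, ordered from undifferentiated spermatogonia to elongating spermatids, with the 95% Poisson interval. ALDH1A2 is at 16.5, 0.220 and 36.8 CPM in the first 3 classes, CRABP1 and RBP4 lie at or below 0.0648 CPM after the early spermatocytes, and RARB goes from 0.259 CPM in late spermatocytes to 15.1 CPM in round spermatids.

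**Figure D4:**
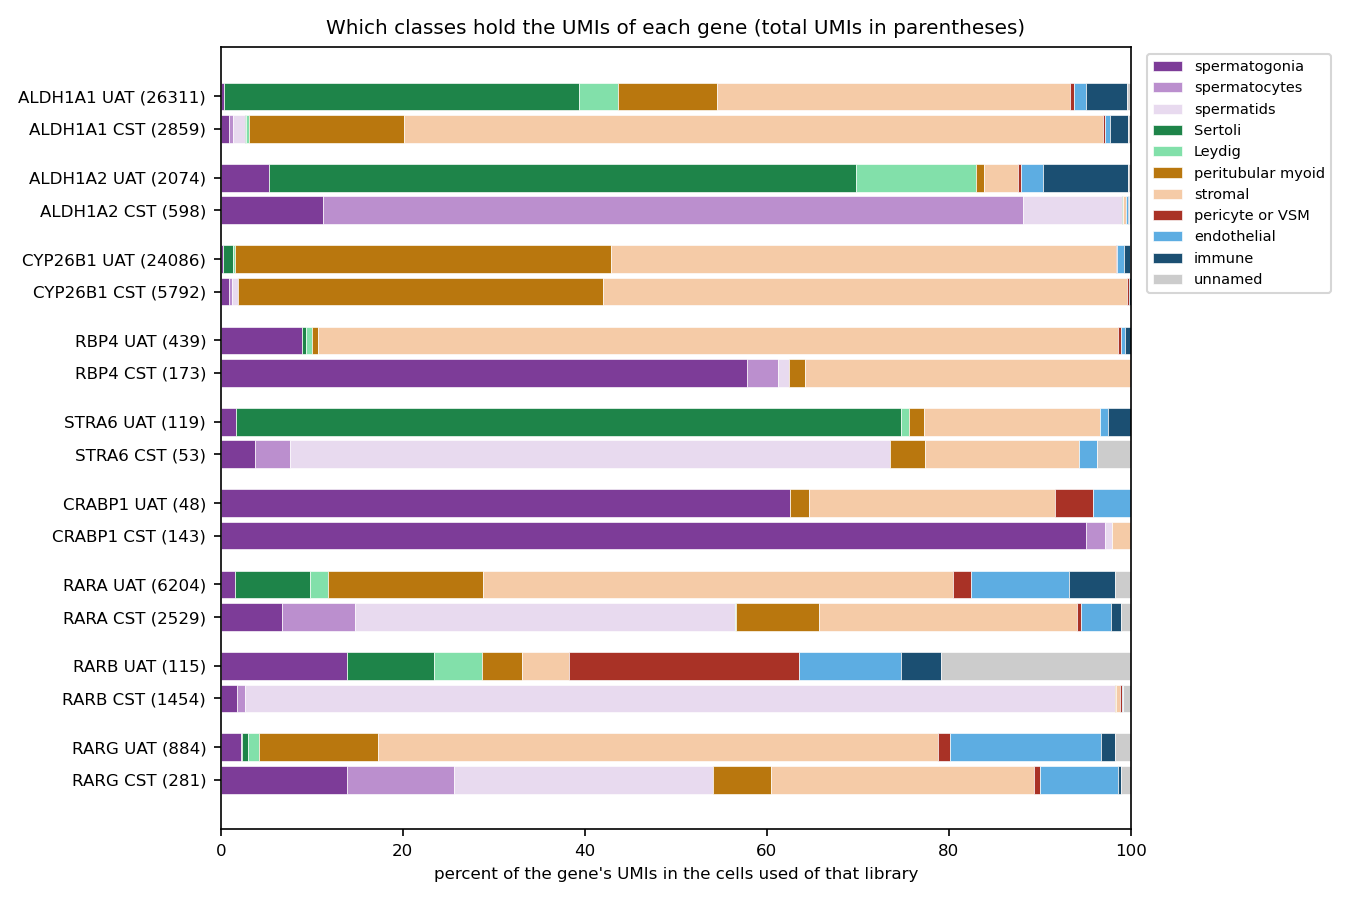
Share of each gene's UMIs (x axis, percent of the UMIs in the cells used of that library) by class, 1 bar per gene and library with the total UMIs in parentheses. CYP26B1 has the same picture in both libraries, with 96.7% and 97.7% in myoid and stromal cells, whereas ALDH1A2 goes from 77.8% in Sertoli and Leydig cells of UAT to 99.0% in germ cells of CST, a share that is 85.6% without doublet removal.

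Between positions, 29 of the 63 pairs of a gene and a class had enough UMIs to be compared. Of these, 9 were at least 1.5-fold higher in UAT, 4 at least 1.5-fold lower and 16 within that range. Over all features of the same classes, 12.5% of pairs were higher and 18.6% lower by the same rule. The counting interval left out 1 for 10 of the 13 called pairs. The 3 whose interval held 1 were RARG in endothelial-like cells and CYP26B1 and RARA in T or NK-like cells. As there was 1 library per position, a difference between positions cannot be told apart from one between these libraries.

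The myoid and stromal classes, which held most ALDH1A1 and CYP26B1 outside Sertoli cells, gave no called pair among 3 and 5 compared, where 8.12% and 5.0% of all features were higher and 17.6% and 18.0% lower. In myoid-like cells the log2 ratio of UAT over CST was 0.44 for ALDH1A1, -0.03 for CYP26B1 and 0.08 for RARA. In stromal-like cells it was -0.14 for ALDH1A1, -0.35 for CYP26B1, -0.19 for RARA, 0.29 for RBP4 and 0.40 for RARG. RARA was within 1.5-fold in 6 of its 7 classes. With the 3 stromal clusters of at least 50 cells in each library alone, CYP26B1 and RBP4 were past 1.5-fold at 0.64 and 0.91. Myoid cells had no such cluster, as cluster 7 held 28 CST cells and cluster 21 held 1 UAT cell. In cluster 7 ALDH1A1 was at 243 CPM in UAT and 169 CPM in CST, and CYP26B1 at 840 and 662 CPM. RARA there was at 89.5 CPM (84.2 to 95.1) in UAT and 141 CPM (86.0 to 218, 20 UMIs) in CST.

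In undifferentiated spermatogonia 3 genes were higher in UAT and 2 lower of 6 compared, with 9.19% and 14.0% over all features. RBP4 was lower, at 9.23 CPM against 20.7 CPM (ratio 0.445, 0.296 to 0.658), and so was CRABP1, at 6.63 against 12.2 CPM (ratio 0.541, 0.327 to 0.878). With every cell thinned to 1000 UMIs the log2 ratio of CRABP1 was 0.54, from few UMIs. ALDH1A2 was higher, at 25.6 CPM (21.0 to 30.9, 108 UMIs) against 16.5 CPM (ratio 1.55, 1.13 to 2.14), and 6.32 of its 108 UMIs were expected from free RNA. That call lies close to 1.5-fold and held in 7 of 9 alternatives: the log2 ratio was 0.63, and it was 0.55 with at least 1000 genes per cell and 0.32 at a clustering resolution of 2. ALDH1A1 stood at 21.3 against 4.75 CPM (ratio 4.48, 2.71 to 7.79), but free RNA was expected to give 80.2 of its 90 UMIs in UAT. CYP26B1 stood at 16.1 against 7.0 CPM (ratio 2.30, 1.46 to 3.71), with 73.4 of its 68 UMIs expected from free RNA and 57.4% of them in 5 cells. Taking free RNA out gave log2 ratios of the opposite sign, -0.76 for ALDH1A1 and -2.94 for CYP26B1. The latter is a bound, as no CYP26B1 was left in UAT and a floor of 3 counts stood in for it. The estimate of free RNA can be too high. For CYP26B1 it exceeded the UMIs seen here and in elongating spermatids of CST, where it was 86.0 against 24 with a share taken from other classes.

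Macrophage-like cells of UAT carried ALDH1A2 at 37.4 CPM (32.2 to 43.2, 185 UMIs). Those of CST had 0 of 406676 UMIs, with an interval up to 9.07 CPM. Against a floor of 3 counts, 7.38 CPM, the UAT level was 5.08-fold higher, and the counting interval of the ratio began at 4.09. ALDH1A2 was 1 of 4 genes compared there, and 18.8% of all features were higher and 16.9% lower in that class. Only 42 of the 652 cells held a UMI, and the 5 cells with most held 47.6% of the UMIs. Without those 5 cells the level was 20.1 CPM, 2.73 times the CST floor. The 42 cells had AMH at 1.73 CPM and INHA at 6.94 CPM, against 637 and 1221 CPM in UAT Sertoli-like cells, and their summed level of 11 Sertoli markers was 41.6 CPM against 70.8 CPM in the other 610 macrophages. C1QA, a macrophage complement gene, was at 1712 CPM in the 42 and 2359 CPM in the others. These cells were sequenced deeper, at a median of 12020 against 6055 UMIs.

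In endothelial-like cells ALDH1A1 was at 27.5 CPM in UAT and 10.0 CPM in CST (ratio 2.74, 1.61 to 5.06) and CYP26B1 at 15.0 and 2.86 CPM (ratio 5.22, 2.01 to 19.4), the latter from 4 UMIs in CST. RARG was lower, at 11.3 against 17.2 CPM (ratio 0.656, 0.424 to 1.06). These were 2 higher and 1 lower of 4 compared, with 9.27% and 17.8% over all features. The log2 ratio of ALDH1A1 was 0.27 without doublet removal and that of CYP26B1 0.41 with at least 1000 genes per cell, both inside 1.5-fold. An endothelial cluster of 105 cells seen in UAT alone carried ALDH1A1 at 99.7 CPM, and the main cluster of 1392 UAT cells 22.5 CPM. In T or NK-like cells all 3 compared were higher in UAT, ALDH1A1 at 32.1 against 6.67 CPM, CYP26B1 at 19.0 against 6.67 CPM and RARA at 27.0 against 16.7 CPM, from 2, 2 and 5 UMIs in CST, with 21.3% of all features higher and 19.5% lower. With free RNA taken out the log2 ratio of ALDH1A1 there fell from 2.27 to 0.69, with the floor of 3 counts in place of the CST level. The log2 ratio of CYP26B1 there had the opposite sign under 4 alternatives, between -0.89 and -0.53, 1 of them with that floor in CST, and that of RARA was 0.57 with free RNA taken out, inside 1.5-fold. CYP26B1 in pericytes or smooth muscle was lower, at 13.7 against 48.6 CPM (ratio 0.281, 0.130 to 0.674), with all 9 CST UMIs in 2 cells, and 19.0% of all features were higher and 27.3% lower there. Without doublet removal its log2 ratio was 0.83.

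**Figure D5:**
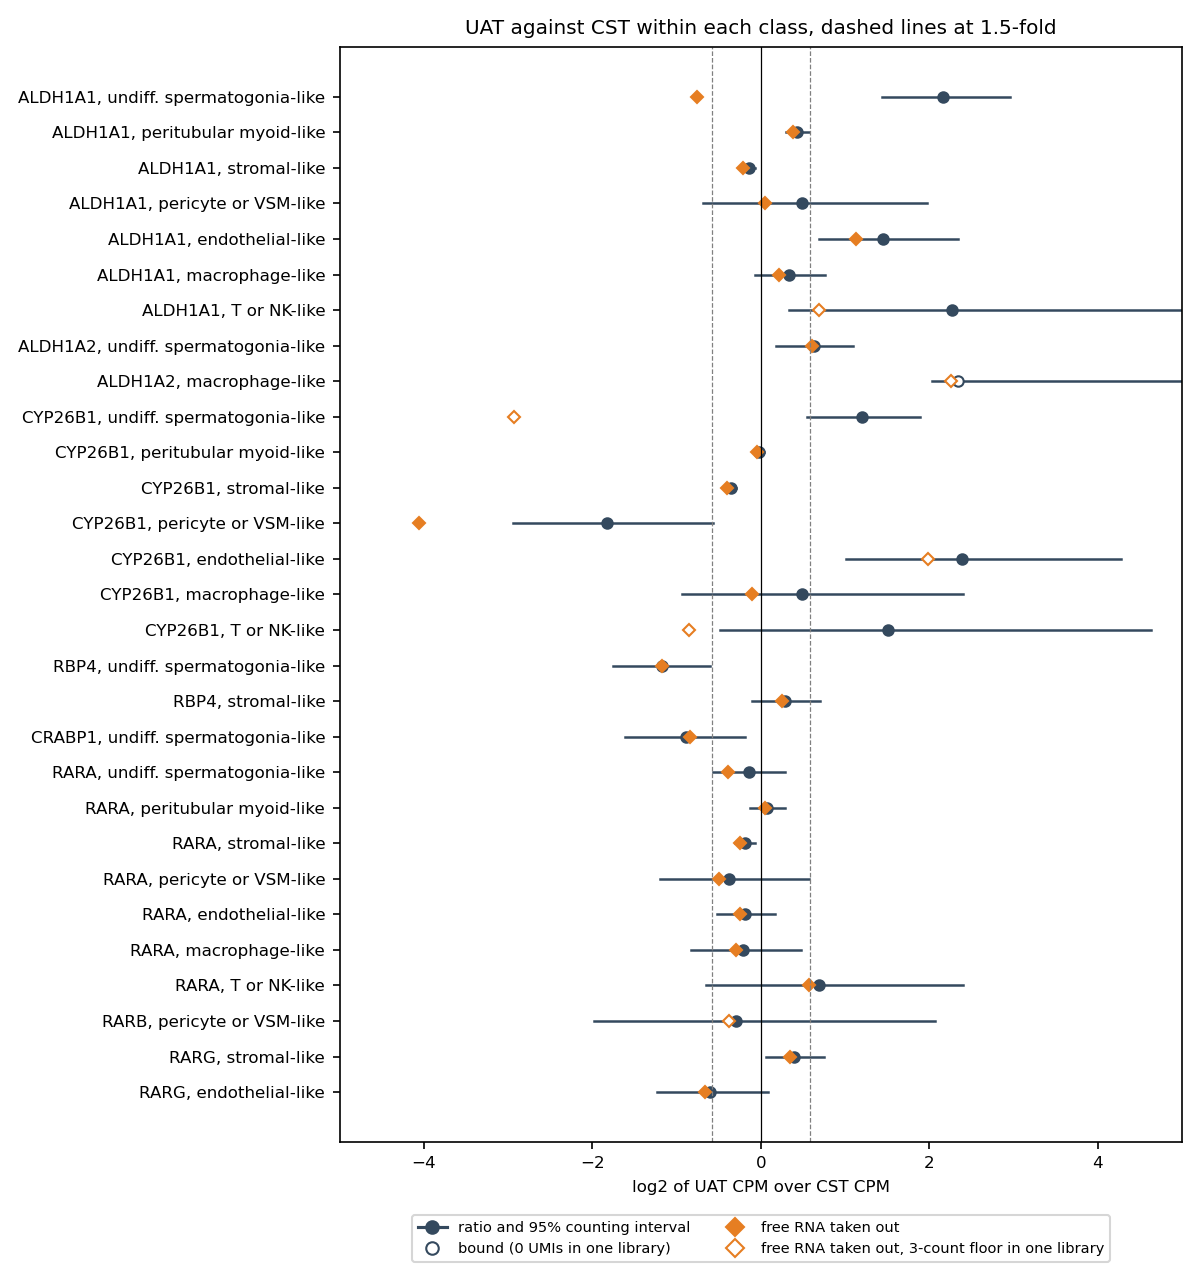
Log2 ratio of UAT over CST (x axis) for the 29 pairs of gene and class that could be compared (y axis), with the 95% counting interval, an open point for the bound of ALDH1A2 in macrophages and an orange diamond for the ratio with free RNA taken out, open where a floor of 3 counts stands in for 1 library. Myoid-like and stromal-like pairs lie inside the dashed lines at 1.5-fold, and ALDH1A1 and CYP26B1 in spermatogonia move to -0.76 and to the bound of -2.94 with free RNA taken out.

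Other genes of the pathway were taken from 5 lists, of which 52 of 56 genes had a feature. In spermatogonia, the list of synthesis and supply had 0 higher and 2 lower of 3 compared, with a median log2 ratio of -0.85. Over all features of that class 9.19% were higher and 14.0% lower, with a median of -0.01. One of the 2 lower genes was FABP5, a fatty acid carrier that can bring retinoic acid to PPARD. It was at 262 CPM in UAT and 472 CPM in CST (ratio 0.556, 0.515 to 0.599). In pericytes or smooth muscle the list had 2 higher and 3 lower of 5, where 19.0% of all features were higher and 27.3% lower. FABP5 was on the higher side there, at 104 CPM in UAT and 32.4 CPM in CST (ratio 3.20, 1.45 to 8.82, 6 UMIs in CST). ALDH1A3, a further retinaldehyde dehydrogenase, was at 246 CPM in UAT and 64.8 CPM in CST there (ratio 3.80, 2.16 to 7.40, 12 UMIs in CST). In myoid-like cells it was at 259 and 242 CPM. DHRS9, a retinol dehydrogenase, was at 44.3 CPM in UAT and 14.8 CPM in CST macrophages (ratio 3.0, 1.36 to 8.28). RBP7, a retinol-binding protein of endothelium, was at 49.2 and 114 CPM in endothelial-like cells (ratio 0.432, 0.363 to 0.517).

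The breakdown and return list had at most 1 gene higher and at most 2 lower in any class. DHRS3, which reduces retinaldehyde back to retinol, was at 52.3 CPM in UAT and 127 CPM in CST endothelial-like cells (ratio 0.410, 0.347 to 0.486). DHRS4 was at 12.5 and 27.0 CPM in macrophages (ratio 0.464, 0.242 to 0.977). RDH14 was at 89.1 and 56.7 CPM in myoid-like cells (ratio 1.57, 1.33 to 1.87). DGAT1, which esterifies retinol among its substrates, was at 22.6 and 6.67 CPM in T or NK cells, the latter from 2 UMIs. CYP26A1, named after its values were seen, was at most 7.36 CPM in any class of at least 50 cells, in early spermatocytes of CST. Among receptors and cofactors 7 to 9 were compared in each class. In T or NK-like cells 3 were higher and 0 lower of 7, where 21.3% of all features were higher and 19.5% lower. In each other class at most 1 was higher and at most 2 lower. Over all features of those classes 5.0% to 19.0% were higher and 14.0% to 27.3% lower. RXRA, a partner of the RARs, was at 7.57 and 14.7 CPM in spermatogonia (ratio 0.513, 0.323 to 0.803). RXRB was at 36.9 and 70.2 CPM in pericytes or smooth muscle with an interval that held 1, and PPARD at 12.7 and 37.8 CPM (ratio 0.337, 0.144 to 0.914). RXRG, also named after its values were seen, stood at 96.6 CPM in round spermatids of CST beside RARB.

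The germ line list held genes chosen here as retinoid-responsive, and their response was not tested. In spermatogonia 0 were higher and 2 lower of 4 compared, with a median log2 ratio of -0.66. Over all features 9.19% were higher and 14.0% lower, with a median of -0.01. KIT, the receptor of differentiating spermatogonia, was at 22.0 CPM in UAT and 46.0 CPM in CST (ratio 0.479, 0.369 to 0.617), and at 142 CPM in differentiating spermatogonia of CST. SOHLH1, a transcription factor of spermatogonia on that list, was at 185 and 348 CPM (ratio 0.530, 0.485 to 0.579). ZGLP1 was at 20.8 and 27.5 CPM, within the range. REC8, a meiotic cohesin, was at 3.15 and 10.0 CPM in endothelial-like cells. STRA8, which opens meiosis and was named after its values were seen, was too low in undifferentiated spermatogonia to be compared, at 1.42 CPM in UAT and 2.50 CPM in CST. It stood at 33.8 CPM in differentiating spermatogonia and 62.3 CPM in early spermatocytes of CST.

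Of the somatic list of retinoid-responsive genes, 4 were higher and 0 lower of 8 compared in spermatogonia, with a median log2 ratio of 0.51, beside the same 9.19%, 14.0% and -0.01 over all features. The largest was RARRES2, at 51.4 and 8.0 CPM (ratio 6.42, 4.42 to 9.62), which in stromal-like cells stood at 1378 and 1337 CPM. In stromal-like cells 0 of 8 were called either way, where 5.0% of all features were higher and 18.0% lower. TGM2, a transglutaminase, was at 26.9 and 4.92 CPM in macrophages, the latter from 2 UMIs. NR2F1, a nuclear receptor, was at 39.8 and 11.5 CPM in endothelial-like cells (ratio 3.48, 2.12 to 6.13). NR2F2 was at 41.6 and 10.0 CPM in T or NK cells, the latter from 3 UMIs, and at 1086 and 977 CPM in stroma. The part of free RNA from the stroma in the spermatogonia and T cell values of these genes was not tested.

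Across the 23 sums of a class and a library with at least 50 cells, the genes most like each member were sought among 9961 genes by Pearson's r of log2(CPM + 10). The sums share libraries, depth and free RNA, and r is a description. CYP26B1 went most closely with PDGFRA, MFAP4 and SFRP2, each at r = 0.97, of which PDGFRA was one of the stromal markers used for naming. ALDH1A1 went with GADD45G at r = 0.91 and with NUPR1 and LHFPL2 at 0.90. ALDH1A2 had less close neighbours, HUNK at 0.80, TMEM163 at 0.79 and KRT18 at 0.78. RARA went with TNRC18 at 0.97, TAX1BP3 at 0.95 and ANO6 at 0.94. RBP4, STRA6, CRABP1, RARB and RARG reached 50 CPM in no class and were not compared in this way.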

How the data were processed

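The 9 genes and all lists were chosen with earlier results of these data known. The authors deposited 1 matrix per library of whole UMI counts per feature and barcode, not normalised. The matrix headers give Cell Ranger 5.0.0 as the counting software. Version 3.0.1 and the mouse build mm10 stand in the submitters' processing notes. The feature names are macaque symbols, so the build is unknown and no coordinates or sequences are given. Of 11526 features with a LOC name, 721 received a symbol from a RefSeq table. Samples took their position from the labels' titles. There was no replicate and no test.

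Barcodes with at least 500 genes were kept. Doublets were scored from simulated pairs and removed at 0.8% per 1000 barcodes, 9.89% of UAT and 12.0% of CST. Cells were clustered together (scanpy 1.11.5, 2000 variable genes without the retinoid genes and lists, 40 components, 15 neighbours, Leiden resolution 1) and named from 18 marker lists, of whose genes 175 of 187 matched. The scoring rule for names was set after the files were seen. A pair was compared with at least 20 UMIs in the class over both libraries and 10 CPM in the higher one. Intervals are exact Poisson for levels, exact conditional binomial for ratios and Clopper-Pearson for shares, at 95%. PCR copies were collapsed by UMI, and intervals cover counting error only. With 0 UMIs, a floor of 3 counts was used. The free RNA share was set from PRM1, PRM2 and TNP1 in CST and INSL3 in UAT and scaled to the library's pooled profile. The ratio step was tested on simulated counts. Named were the 9 genes, up to 4 genes per list with the largest absolute log2 ratio, 1 of which is not reported here, and the 3 most alike genes of each member with at least 50 CPM.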

Additional observations from a re-analysis of the deposited data

How the results depend on the processing

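No paired analysis was possible because each position had 1 library. Of the log2 ratios recomputed under the alternatives, 272 stayed within the width of their counting interval, 21 moved by more and 11 of called pairs changed sign. The 9 higher pairs became 5 with at least 1000 genes per cell, 4 of 15 comparable pairs with every cell thinned to 1000 UMIs, and 4 of 23 with free RNA taken out. The 4 lower pairs became 2 with the mean of the CPM of each cell and 0 with thinning. Between 7 and 12 pairs were higher and 3 to 5 lower under the other alternatives. Reversed log2 ratios were CYP26B1 in T or NK cells (-0.53 with at least 200 genes, -0.89 with at least 1000, -0.66 thinned, -0.86 with free RNA taken out and a floor of 3 counts in CST), CYP26B1 in pericytes or smooth muscle (0.83 without doublet removal), CYP26B1 in spermatogonia (-0.14 thinned, and a bound of -2.94 with free RNA taken out, from a floor of 3 counts in UAT), ALDH1A1 in spermatogonia (-0.76 with free RNA taken out), CRABP1 in spermatogonia (0.54 thinned), RARG in endothelial cells (0.11 thinned) and ALDH1A2 in macrophages (-1.46 thinned, where few UMIs are left and the value is a bound). Their cause was not tested. RBP4 in spermatogonia stayed lower in 9 of 9 alternatives, between -1.73 and -1.10. The class with the highest level kept its place for 14 to 18 of 18 genes and libraries. Without doublet removal Sertoli-like cells were highest in CST for ALDH1A1, ALDH1A2 and STRA6. At resolution 0.5 spermatogonia were unnamed, and the use of shared clusters left out myoid cells. At resolution 0.5 the highest class in CST was late spermatocytes for ALDH1A2, early spermatocytes for CRABP1 and stromal-like cells for RBP4. In UAT it was pericytes or smooth muscle for CRABP1. Undifferentiated spermatogonia could be compared in 9 alternatives, where stromal-like cells could in 11. At resolution 2, and with each library clustered alone, CRABP1 in UAT was highest in cells named differentiating spermatogonia. The name of the UAT spermatogonia thus depends on the clustering. Depth limits RBP4, STRA6, CRABP1, RARB and RARG, which reached 50 CPM in no class of at least 50 cells, and CST pericytes and T or NK cells, with 80 and 138 cells.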
